A study of Mus musculus with 59 samples.

Results

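Livers of B6C3F1 mice that had received 5 daily doses of baclofen were compared with livers of mice that had received 1 dose. Baclofen, a muscle relaxant, activates the GABA-B receptor. The sample titles put 12 of the 59 arrays of the series in this comparison, 8 labelled baclofen 5 day and 4 labelled baclofen 1 day. Each change is set beside the same step in vehicle livers, with 4 arrays labelled vehicle 5 day and 3 labelled vehicle 1 day. The vehicle, 0.5% methylcellulose, was given by the same daily schedule, and all livers were taken 2 h after the last dose. The labels give neither the amount of baclofen nor the age of the mice, and numbered replicates are not stated to be separate animals. The number of doses, the days of handling and the age at collection cannot be told apart within either treatment. The left lateral liver lobe was sampled, and total RNA was hybridised to Affymetrix whole-genome arrays.

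GABA-B receptors couple to inhibitory G proteins, which lower cyclic AMP and open potassium channels, and they act mainly on nerve cells. Hepatocytes, the main cells of the liver, set their transcription by circulating insulin, glucagon, glucocorticoids and growth hormone, by bile acids and by the daily clock. Many of these signals start transcription within hours.

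In 5 of the 7 livers at 1 day, 3 of the 4 baclofen livers among them, the title and the source field disagree on the treatment. The treatment field sides with the title each time, and groups follow the title. Under the source field the comparison changes in kind: 51 genes passed the test between 5 and 1 day under baclofen in place of 585, and 187 passed under vehicle in place of 0. Every result below therefore rests on the titles. For Cirbp, Plin5, Slc2a1 and Trp53inp1 all 4 livers titled baclofen 1 day lay above all 3 titled vehicle 1 day. Those genes were picked as falls in groups set by the titles, so their separation cannot decide which label is right. Values of Igfbp1, which did not pass between 5 and 1 day, are given by both labels below. The list of 17 glucocorticoid response genes had a median log2 change of -0.25 under the titles and 0.59 under the source field, and the list of 17 clock genes -0.03 and 0.67. Baclofen 5 day replicate 8 stood apart from its own group. It had a mean correlation of 0.983 with the other arrays of that group, against 0.991 to 0.992 for the other 7. The 4 vehicle 5 day arrays were also less alike, with mean correlations of 0.9858, 0.9825, 0.9876 and 0.9847 within their group. These are correlations across the genes tested.

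The livers carried the labelled tissue's markers at nearly the same level in every group. The mean log2 intensity of 10 hepatocyte markers, albumin and apolipoprotein genes among them, was 14.63 ± 0.02 (SD, n = 8) in baclofen 5 day, 14.57 ± 0.04 (n = 4) in baclofen 1 day, 14.58 ± 0.06 (n = 4) in vehicle 5 day and 14.56 ± 0.05 (n = 3) in vehicle 1 day livers. A sign of RNA breakdown, the signal of 3' minus that of 5' control probe sets, was 0.44 ± 0.04 on the log2 scale in baclofen 5 day and 0.45 ± 0.04 in baclofen 1 day livers (exact permutation p = 0.758, 2-sided, 495 splits of the arrays). Precision is limited by how many arrays each group has.

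Of 10916 genes tested, 585 passed the threshold between 5 and 1 baclofen doses, an adjusted p under 0.05 by limma. That is 5.36% of the genes tested. Of these, 225 rose (2.06%) and 360 fell (3.3%), and the change was at least 2-fold for 15 and 27 of them. After quantile normalization 604 passed and the split was 299 up and 305 down. With each array centred on its median 558 passed, 202 up and 356 down. The excess of falls was thus nearly absent after the first rescaling and stayed after the second. Without baclofen 5 day replicate 8, 488 of the 585 passed. Without baclofen 1 day replicate 1, without baclofen 1 day replicate 2 and without baclofen 5 day replicate 3 the counts were 226, 211 and 386. A set of 153 genes passed whichever of the 19 livers was left out. In whole tissue, fewer cells of a type and less RNA per cell cannot be told apart.

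In vehicle livers 0 genes passed between 5 and 1 day by limma, 0% of those tested, with 779 at an unadjusted p under 0.05. The vehicle groups are smaller, and the median standard error of a change was 0.10 there against 0.08 under baclofen, so a count of 0 does not show that vehicle livers stayed the same. The change under baclofen minus the change under vehicle, which has a median standard error of 0.13, passed for 2 genes (0.0183%), with 1050 at an unadjusted p under 0.05. For the other genes, the change under baclofen is therefore measured, but a difference from vehicle is not shown. The vehicle change ran in the same direction for 418 of the 585 genes (71.5%), against 56.5% of all genes tested, and had at least 0.5 times the size for 103 (17.6%). The median log2 change of the genes that rose was 0.40 under baclofen and 0.08 under vehicle, and that of the genes that fell was -0.41 and -0.08. Across all genes the changes under baclofen and vehicle, which share no array, had a Pearson correlation of 0.19, over genes that are not independent replicates. Each log2 change below is given with its standard error and, where a gene is described in full, with the vehicle change and the 95% interval of the difference between them, which is not adjusted for the number of genes. Livers are numbered by replicate within their group. The 12 largest rises and falls and the called members of the pathway lists were named by a rule, and familiar members that did not pass were added with their values known.

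**Figure D1:**
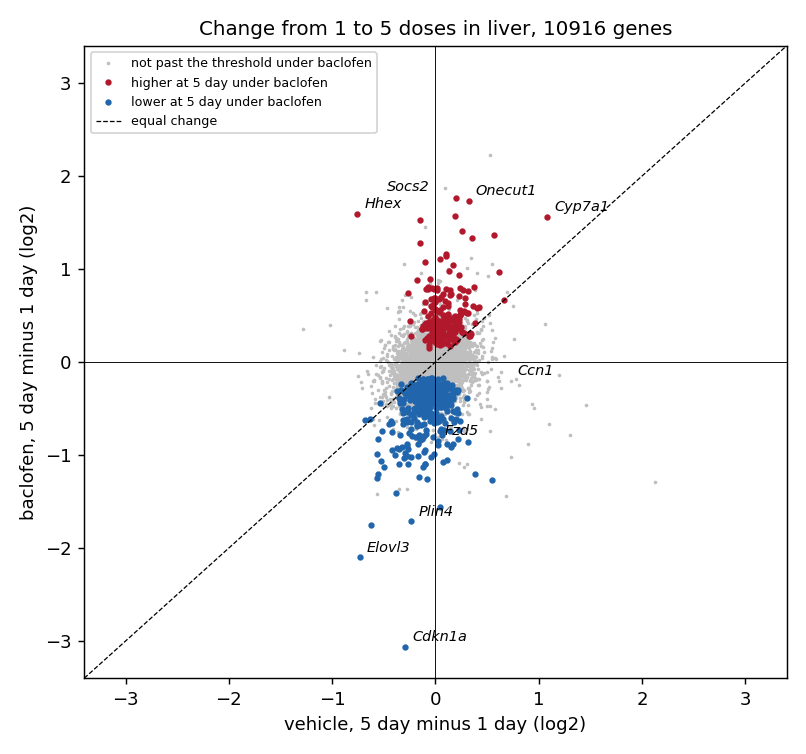
Change from 1 to 5 daily doses in liver, for each of 10916 genes, as log2 of 5 day over 1 day, with the vehicle change on the horizontal axis and the baclofen change on the vertical axis. The 225 genes that rose and the 360 that fell under baclofen are coloured, and their median vehicle changes are 0.08 and -0.08.

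The cell cycle inhibitor gene Cdkn1a, a target of the tumour suppressor p53 that also responds to other stress and hormone signals, had the largest fall of all genes past the threshold. Its intensity was 86.1 to 184 with a median of 117 in baclofen 5 day livers, 2183, 863, 747 and 743 in the 4 baclofen 1 day livers, 61.1, 667, 153 and 55.4 in vehicle 5 day livers and 239.7, 79.0 and 245 in vehicle 1 day livers. All 8 livers after 5 baclofen doses lay below all 4 after 1 dose, and they fell within the range of the vehicle livers. The log2 change was -3.06 ± 0.51 (SE, adjusted p = 0.00218), which is 8.3-fold lower after 5 doses. The vehicle change was -0.29 ± 0.63, and the interval of the difference ran from -4.47 to -1.07. One of the 4 vehicle 5 day livers stood apart from the other 3, at 667. The dimmer of the 2 probe sets of the gene changed by -1.26.

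Of 14 tested p53 targets and growth arrest genes, 5 fell and 0 rose, against 3.3% and 2.06% of all genes, and the list's median log2 change was -0.14, against -0.0024 over all genes and -0.0032 for the list under vehicle. The 5 are Cdkn1a, Trp53inp1, Btg2, Ccng1 and Gadd45b, the last named after its values were seen. Trp53inp1, a nuclear protein that takes part in cell death and autophagy, stood at 1958 to 3391 with a median of 2524 in baclofen 5 day livers, against 7798, 3951, 5081 and 5493 in baclofen 1 day livers. Vehicle livers held 613, 746, 744 and 919.5 at 5 day and 1070, 688 and 1186 at 1 day. The baclofen groups did not overlap each other or the vehicle livers, and after 5 doses the gene still stood above its vehicle level. The change was -1.10 ± 0.18 (adjusted p = 0.00194). The vehicle change was -0.35 ± 0.22, with -1.34 to -0.14 as the interval of the difference. Btg2, an antiproliferative gene induced early by many stimuli, changed by -0.93 ± 0.21 (adjusted p = 0.017) and by -0.37 in vehicle. Ccng1, a cyclin induced by p53, changed by -0.34 ± 0.08 (adjusted p = 0.0235), and Gadd45b, a stress-response gene, by -0.65 ± 0.18 (adjusted p = 0.0391). The other probe sets of Ccng1, with mean log2 intensities of 8.05 and 7.64 against 8.08, changed by -0.12 and -0.19. Its call ended with the mean of the probe sets. The p53 partner gene Mdm2, whose induction marks p53 activity, did not pass at -0.12 ± 0.06, nor did Phlda3 at -0.06 ± 0.08 or Zmat3 at -0.10 ± 0.08. Without baclofen 1 day liver 1 or 2 the list held 2 calls in place of 5, those of Cdkn1a and Trp53inp1, and without liver 4 it held 3. The call of Gadd45b ended without baclofen 5 day livers 1, 2, 3, 4 or 5 or baclofen 1 day livers 1, 2 or 4 (adjusted p up to 0.153). Of the single calls, the call of Btg2 ended without baclofen 1 day livers 1, 2 or 4 (adjusted p up to 0.0692), and the call of Ccng1 ended without baclofen 1 day livers 1, 2 or 3 (adjusted p up to 0.108).

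This list had the largest share of its members past the threshold in 1 direction among the pathway lists, and the promoters of the members named by the rule and held in the RefSeq table of GRCm38.p6 are printed for that reason. Each window runs from 250 bases before the gene's start to 50 bases after it, 5′ to 3′ on the gene's strand. Capitals mark matches to the motifs searched. The first window of Cdkn1a is chr17:29090729-29091028 on the plus strand, that of Btg2 chr1:134079106-134079405 and that of Ccng1 chr11:40755237-40755536, both on the minus strand.
Cdkn1a: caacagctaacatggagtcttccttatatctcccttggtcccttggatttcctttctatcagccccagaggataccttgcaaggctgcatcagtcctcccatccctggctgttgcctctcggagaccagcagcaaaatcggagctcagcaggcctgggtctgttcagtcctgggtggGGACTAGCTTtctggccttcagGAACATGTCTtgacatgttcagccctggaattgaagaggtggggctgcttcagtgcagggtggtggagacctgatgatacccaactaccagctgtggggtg
Btg2: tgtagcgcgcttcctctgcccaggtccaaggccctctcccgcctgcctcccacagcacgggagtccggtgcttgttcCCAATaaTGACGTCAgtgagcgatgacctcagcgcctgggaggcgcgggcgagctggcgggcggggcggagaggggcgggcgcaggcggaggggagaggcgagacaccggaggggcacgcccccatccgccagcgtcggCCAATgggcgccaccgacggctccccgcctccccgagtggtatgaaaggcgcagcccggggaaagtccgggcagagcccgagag
Ccng1: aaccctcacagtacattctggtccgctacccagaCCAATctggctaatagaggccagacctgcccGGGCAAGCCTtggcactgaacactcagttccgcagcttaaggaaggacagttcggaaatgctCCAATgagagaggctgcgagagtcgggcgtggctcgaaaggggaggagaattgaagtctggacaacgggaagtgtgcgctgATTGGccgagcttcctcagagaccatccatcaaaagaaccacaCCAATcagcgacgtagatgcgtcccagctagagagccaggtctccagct
In the Cdkn1a window the p53 half-site, a motif added once this list had been chosen, was found with its first base at -73 and at -51 from the gene's start. A second Cdkn1a window, chr17:29093519-29093818, held 0 of the motifs. The Ccng1 window held a half-site at -185 and 4 CCAAT boxes, at -216, -123, -42 and 2. The Btg2 window held CCAAT boxes at -173 and -34 and the cAMP response element TGACGTCA at -166. Of the 32851 promoter windows searched, 8.36% held the half-site, 37.41% CCAAT and 1.79% TGACGTCA on either strand. The search also covered the E-box CACGTG, the clock D-box TTATGTAA, the FOXO site GTAAACA, the cell cycle homology region TTTGAA, the E2F site TTTCCCGC, the sterol response element TCACCCCAC and the clock element TAGGTCA. The glucocorticoid, ER stress and heat shock elements were searched as well. CCAAT also begins the ER stress element, so those motifs can overlap. A match describes letters only.

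Genes of the lipid droplet coat fell together with these. Perilipins coat the droplets in which hepatocytes store triglyceride and control the access of lipases. Of 14 tested genes of lipid droplets and lipolysis 3 fell and 0 rose, against 3.3% and 2.06% of all genes, and these were the 3 perilipins tested. Plin4 stood at 104 to 439 with a median of 143 in baclofen 5 day livers, against 520.1, 321, 562 and 679.5 in baclofen 1 day livers, and at 62.7, 90.7, 45.9 and 61.1 in vehicle 5 day and 49.5, 85.4 and 96.4 in vehicle 1 day livers. Baclofen 5 day replicate 6, at 439, lay within the 1 day range, and the other 7 lay below it. The log2 change was -1.71 ± 0.31 (adjusted p = 0.00423), against -0.23 ± 0.39 in vehicle, and the interval of the difference ran from -2.51 to -0.44. Plin5, which ties droplets to mitochondria, stood at 678 to 1442 with a median of 849 after 5 baclofen doses and at 2713, 1970, 2042 and 1966 after 1, with no overlap. The 4 vehicle 5 day livers held 456, 742, 598 and 527 and the 3 vehicle 1 day livers 549, 599.7 and 779. Its change was -1.24 ± 0.17 (adjusted p = 0.000577), against -0.15 ± 0.21 in vehicle, with an interval of -1.64 to -0.52. Plin2, the main perilipin of hepatocytes, changed less, by -0.61 ± 0.17 (adjusted p = 0.0464). Its lowest value was in baclofen 5 day replicate 8, and without that array the change was -0.50 (adjusted p = 0.0425). The Plin2 call is the least stable of the 3: the call of Plin2 ended without baclofen 5 day livers 2, 3, 4, 5 or 6, baclofen 1 day livers 1, 2, 3 or 4, vehicle 5 day liver 4 or vehicle 1 day livers 2 or 3 (adjusted p up to 0.168). G0s2, an inhibitor of the lipase Pnpla2, stood at -1.09 ± 0.42 and did not pass, and neither did Pnpla2 at -0.11 ± 0.10. The list's median was -0.15, against 0.08 in vehicle.

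**Figure D2:**
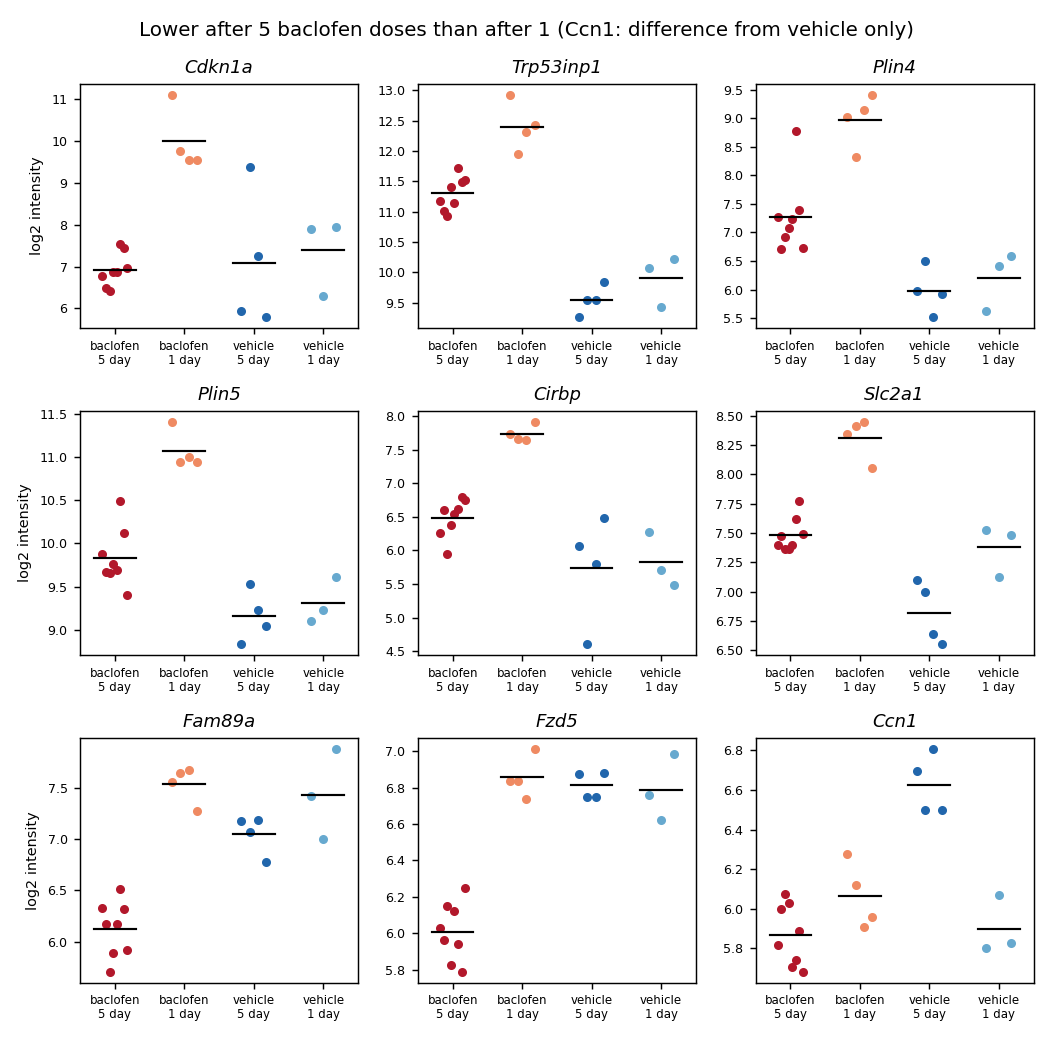
Log2 intensity of 9 genes in each liver (points) with the mean of each group (bars), for baclofen 5 day (n = 8), baclofen 1 day (n = 4), vehicle 5 day (n = 4) and vehicle 1 day (n = 3). Cdkn1a, Trp53inp1, Plin4, Plin5, Cirbp, Slc2a1 and Fam89a fell under baclofen, Fzd5 fell under baclofen while all vehicle livers stand between 98.5 and 127, and Ccn1 is high in vehicle 5 day livers alone.

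Several other large falls stand in no common list. Fam89a, a gene of little-known function, stood at 52.4 to 91.2 with a median of 72.2 in baclofen 5 day livers, 188, 199, 204 and 154 in baclofen 1 day livers, 145, 134, 145 and 109.9 in vehicle 5 day livers and 171, 128 and 235 in vehicle 1 day livers. Baclofen 5 day livers lay below every other liver. Its change was -1.41 ± 0.15 (adjusted p = 8.49e-05), against -0.38 ± 0.19 in vehicle, with an interval of -1.54 to -0.52. Tspyl2, a nucleosome assembly protein of the X chromosome that restrains cell division, changed by -1.20 ± 0.19 (adjusted p = 0.0015) and by 0.38 ± 0.24 in vehicle, and its interval ran from -2.22 to -0.94. Its baclofen groups overlapped, since baclofen 1 day livers spread over 347, 215, 143 and 359 while baclofen 5 day livers spanned 89.5 to 148. Snhg3, a noncoding host RNA of small nucleolar RNAs, stood at 91.8 to 387 with a median of 208 after 5 baclofen doses and 960.1, 715, 247 and 785 after 1, and at 55.8 to 82.2 in vehicle 5 day and 51.4 to 92.1 in vehicle 1 day livers. After 1 dose all 4 baclofen livers lay above every vehicle liver. Its change was -1.56 ± 0.36 (adjusted p = 0.0176), though the call of Snhg3 ended without baclofen 1 day livers 1, 2 or 4 (adjusted p up to 0.0809). Tsc22d1, a leucine zipper gene induced by growth factors, changed by -1.25 ± 0.27 (adjusted p = 0.0134) and by -0.57 in vehicle, and the call of Tsc22d1 ended without baclofen 1 day liver 1 (adjusted p up to 0.0643). Elovl3, a fatty acid elongase under clock and hormone control, changed by -2.10 ± 0.49 (adjusted p = 0.0176) and by -0.73 ± 0.61 in vehicle. Its value in baclofen 5 day replicate 8 was 281, against 1437 to 3322 in the other 7, and without that array the change was -1.71 (adjusted p = 0.00224). With that array kept, the call of Elovl3 ended without baclofen 1 day livers 1 or 2 (adjusted p up to 0.0732).

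Cirbp, the cold-inducible RNA-binding protein, fell without overlap, from a group of 1 day livers that agreed closely. It stood at 61.6 to 112 with a median of 95.1 in baclofen 5 day livers and at 213, 203, 199 and 241 in baclofen 1 day livers. Vehicle livers held 66.8, 24.3, 55.5 and 89.8 at 5 day and 77.1, 52.2 and 44.8 at 1 day. The change was -1.25 ± 0.24 (adjusted p = 0.00677), against -0.08 ± 0.30 in vehicle, and the interval of the difference ran from -1.98 to -0.35. Of 14 tested cold-inducible genes and splicing regulators 2 fell and 2 rose, against 3.3% and 2.06% of all genes. The other fall was Srsf3, a splicing factor, with a change of -0.61 ± 0.16 (adjusted p = 0.0291). The rises were Clk4, a kinase of splicing factors, by 0.37 ± 0.10 (adjusted p = 0.0316), and Rbm5, a splicing repressor, by 0.35 ± 0.09 (adjusted p = 0.0346). None of the 3 calls held in every fit with 1 library left out: the call of Srsf3 ended without baclofen 1 day livers 1, 2, 3 or 4 (adjusted p up to 0.0895), the call of Clk4 ended without baclofen 5 day livers 2, 3 or 6 or baclofen 1 day livers 1 or 2 (adjusted p up to 0.136) and the call of Rbm5 ended without baclofen 5 day livers 2, 3 or 5 or baclofen 1 day livers 1, 2 or 4 (adjusted p up to 0.141).

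Among genes of early and hormone responses 4 fell. Of 17 tested glucocorticoid response genes 2 fell and 0 rose, against 3.3% and 2.06% of all genes, with 12 lower and 5 higher after 5 doses. Dusp1, a phosphatase that switches off MAP kinases, stood at 643 to 2160 with a median of 1014 in baclofen 5 day livers, against 4279, 2010, 1606 and 3390 in baclofen 1 day livers, and at 285 to 567 in vehicle 5 day and 512 to 752 in vehicle 1 day livers. Sgk1, a kinase induced by steroids, stood at 377 to 688 with a median of 498 in baclofen 5 day livers, against 1200, 948, 684 and 998 in baclofen 1 day livers, and at 126 to 413 in vehicle 5 day and 191 to 338 in vehicle 1 day livers. After 5 doses all baclofen livers thus still lay above the vehicle 5 day livers for Dusp1. For Sgk1, 5 of the 8 lay above the highest vehicle 5 day liver. The changes were -1.21 ± 0.32 for Dusp1 (adjusted p = 0.0355) and -0.93 ± 0.25 for Sgk1 (adjusted p = 0.0369), against -0.56 and -0.36 in vehicle. Both are weak calls: the call of Dusp1 ended without baclofen 5 day livers 1, 2, 3, 5 or 8 or baclofen 1 day livers 1, 2 or 4 (adjusted p up to 0.14), and the call of Sgk1 ended without baclofen 5 day livers 1, 2, 3 or 5 or baclofen 1 day livers 1, 2 or 4 (adjusted p up to 0.13). Other members of that list, which respond to glucocorticoids in many tissues, did not pass, among them Fkbp5 at 0.31 ± 0.31 and Tsc22d3 at -0.17 ± 0.24. Of 15 immediate early genes, transcribed within minutes of a signal, 2 fell, Btg2 and Klf2, and 0 rose, against the same shares of all genes. Klf2, a transcription factor of endothelium and other cells, changed by -0.52 ± 0.14 (adjusted p = 0.0391), and the call of Klf2 ended without baclofen 5 day livers 1, 2, 4 or 5 or baclofen 1 day livers 1, 2 or 4 (adjusted p up to 0.135).

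Chaperone and folding genes of the endoplasmic reticulum were mostly lower after 5 baclofen doses. The unfolded protein response raises these genes when misfolded protein builds up in that compartment. Of 21 tested genes 2 fell and 0 rose, against 3.3% and 2.06% of all genes. Under baclofen 18 of 21 were lower, with a median of -0.34, against 5 of 21 lower in vehicle, with a median of 0.04. Sel1l, a part of the machinery that clears misfolded proteins, changed by -0.58 ± 0.13 (adjusted p = 0.0153), against 0.05 ± 0.16 in vehicle, and the interval of the difference ran from -1.07 to -0.19. Sdf2l1, a chaperone partner, stood at 221 to 648 with a median of 329.8 in baclofen 5 day livers and at 983, 972, 544 and 530.4 in baclofen 1 day livers, which overlapped. Its change was -1.10 ± 0.30 (adjusted p = 0.0401). Members that did not pass had values of the same sign, such as the chaperone genes Hspa5 at -0.51 ± 0.16, Pdia4 at -0.48 ± 0.15 and Manf at -0.70 ± 0.23, while Atf4 stood at 0.16 ± 0.10 and Xbp1 at 0.19 ± 0.15. Of the calls, the call of Sel1l ended without baclofen 1 day livers 1 or 2 (adjusted p up to 0.0772), and the call of Sdf2l1 ended without baclofen 5 day livers 1, 2, 3, 5 or 6 or baclofen 1 day livers 1 or 2 (adjusted p up to 0.144). The unfolded protein response list held 0 falls without baclofen 1 day liver 1 or 2, 1 without baclofen 5 day liver 1, 2, 3, 5 or 6, 3 without baclofen 5 day liver 4, 4 without baclofen 1 day liver 3, baclofen 5 day liver 7 or vehicle 5 day liver 2, and 5 without vehicle 5 day liver 4. Of 14 cytosolic heat shock chaperones 1 fell, against 3.3% of all genes. Hspa1b, an inducible chaperone, stood at 193 to 1088 with a median of 571 in baclofen 5 day livers and at 2118, 2561, 1160 and 1928 in baclofen 1 day livers, without overlap, and at 2199, 2498, 1366 and 619 in vehicle 5 day and 1929, 2332 and 2565 in vehicle 1 day livers. Its change was -1.75 ± 0.40 (adjusted p = 0.0157), against -0.62 ± 0.50 in vehicle. The near-identical gene Hspa1a can share its probes, and the call of Hspa1b ended without baclofen 1 day livers 1 or 2 (adjusted p up to 0.07).

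Wnt signalling, which sets the division of labour along the liver lobule, was represented by 16 tested receptors, targets and pericentral genes, of which 3 fell and 0 rose, against 3.3% and 2.06% of all genes. Fzd5, a Frizzled receptor for Wnt proteins, stood at 55.3 to 76.1 with a median of 63.9 in baclofen 5 day livers, against 114, 114, 107 and 129 in baclofen 1 day livers, 117, 108, 107 and 118 in vehicle 5 day livers and 108, 98.5 and 127 in vehicle 1 day livers. The 8 baclofen 5 day livers lay below all 11 others. The change was -0.85 ± 0.08 (adjusted p = 6.99e-05), against 0.02 ± 0.11 in vehicle. Fzd5 is 1 of the 2 genes for which the change differed from that in vehicle, by -0.87 with an interval of -1.16 to -0.59 (adjusted p = 0.0279). Its adjusted p for that difference lay between 0.0129 and 0.174 with each liver left out and missed the threshold in 11 of 19 fits, those without baclofen 5 day livers 1, 5, 6 or 7, baclofen 1 day livers 1, 2 or 4, vehicle 5 day livers 1 or 3 or vehicle 1 day livers 1 or 2, and a second, dim probe set changed by -0.16 under baclofen. Lgr5, a receptor that strengthens Wnt signals in pericentral hepatocytes, stood at 34.3 to 87.7 with a median of 63.2 in baclofen 5 day livers and at 108, 133, 97.6 and 122 in baclofen 1 day livers, without overlap, and its change was -0.94 ± 0.19 (adjusted p = 0.0097). In vehicle it changed by -0.26 ± 0.24, with -1.32 to -0.027 as the interval of the difference. A second, dimmer probe set of Lgr5 changed by 0.005 under baclofen. The lowest Lgr5 value, 34.3, lay below the lowest mean intensity tested, 42.9. Lrp5, a co-receptor, changed by -0.33 ± 0.09 (adjusted p = 0.0369), though the call of Lrp5 ended without baclofen 5 day livers 1, 4, 5 or 6 or baclofen 1 day livers 1, 2 or 3 (adjusted p up to 0.13). The Wnt target genes Axin2 at -0.18 ± 0.12 and Glul at -0.20 ± 0.09 did not pass.

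Ccn1, a secreted matrix protein induced by mechanical and growth signals, is the other gene for which the changes differed. It stood at 51.3 to 67.3 with a median of 57.8 in baclofen 5 day livers, 77.5, 69.6, 59.95 and 62.1 in baclofen 1 day livers, 104, 90.4, 112 and 90.4 in vehicle 5 day livers and 55.7, 67.01 and 56.7 in vehicle 1 day livers. The 4 vehicle 5 day livers lay above all 15 others, so the difference comes from the vehicle groups: the change was -0.20 ± 0.09 under baclofen, which did not pass (adjusted p = 0.213), and 0.73 ± 0.11 under vehicle. The difference was -0.93 with an interval of -1.24 to -0.62 (adjusted p = 0.0279). It too missed the threshold in 11 of the 19 fits with a liver left out, those without baclofen 5 day livers 1, 5, 6 or 7, baclofen 1 day livers 1, 2 or 4, vehicle 5 day livers 1 or 3 or vehicle 1 day livers 1 or 3, with an adjusted p of 0.019 to 0.133. Ccn1 is dim, where the lowest mean intensity tested was 42.9. A filter at the 60th percentile left it out, and so did the mean of its probe sets. Of 11 tested YAP targets and CCN genes 0 passed under baclofen.

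Bile acid genes moved in both directions, and the largest movement also occurred in vehicle. Cyp7a1, the rate-limiting enzyme of bile acid synthesis, stood at 816 to 2049 with a median of 1508 in baclofen 5 day livers and at 653, 492, 343 and 459.7 in baclofen 1 day livers. In vehicle it stood at 1374, 1645, 803 and 1316 at 5 day and 579, 659 and 531 at 1 day. All 5 day livers of either treatment lay above all 1 day livers of either treatment. The change was 1.56 ± 0.23 under baclofen (adjusted p = 0.000946) and 1.08 ± 0.28 under vehicle, where it did not pass, and the interval of the difference, -0.27 to 1.24, includes 0. Nr1h4, the bile acid receptor FXR, gave the same picture at a smaller size. It stood at 867 to 1110 with a median of 1036 in baclofen 5 day livers and 791, 742, 719.8 and 772 in baclofen 1 day livers, and at 1009, 1024, 1052 and 1125 in vehicle 5 day and 799.8, 804 and 808 in vehicle 1 day livers. It changed by 0.42 ± 0.06 under baclofen (adjusted p = 0.000907) and by 0.39 ± 0.07 under vehicle, an interval of -0.17 to 0.23. Of 15 genes on the list 2 rose and 2 fell, against 2.06% and 3.3% of all genes. The falls were Nr0b2, the repressor SHP that holds Cyp7a1 down, with a change of -0.84 ± 0.21 (adjusted p = 0.0234), and Cyp8b1, the enzyme that makes cholic acid, with a change of -0.67 ± 0.18 (adjusted p = 0.034), against -0.15 and -0.11 in vehicle. Of these, the call of Nr0b2 ended without baclofen 1 day livers 1 or 2 (adjusted p up to 0.085), and the call of Cyp8b1 ended without baclofen 5 day liver 3 or baclofen 1 day livers 1 or 2 (adjusted p up to 0.141). The bile salt exporter Abcb11 stood at -0.02 ± 0.07 and the uptake transporter Slc10a1 at 0.20 ± 0.09, neither past the threshold.

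**Figure D3:**
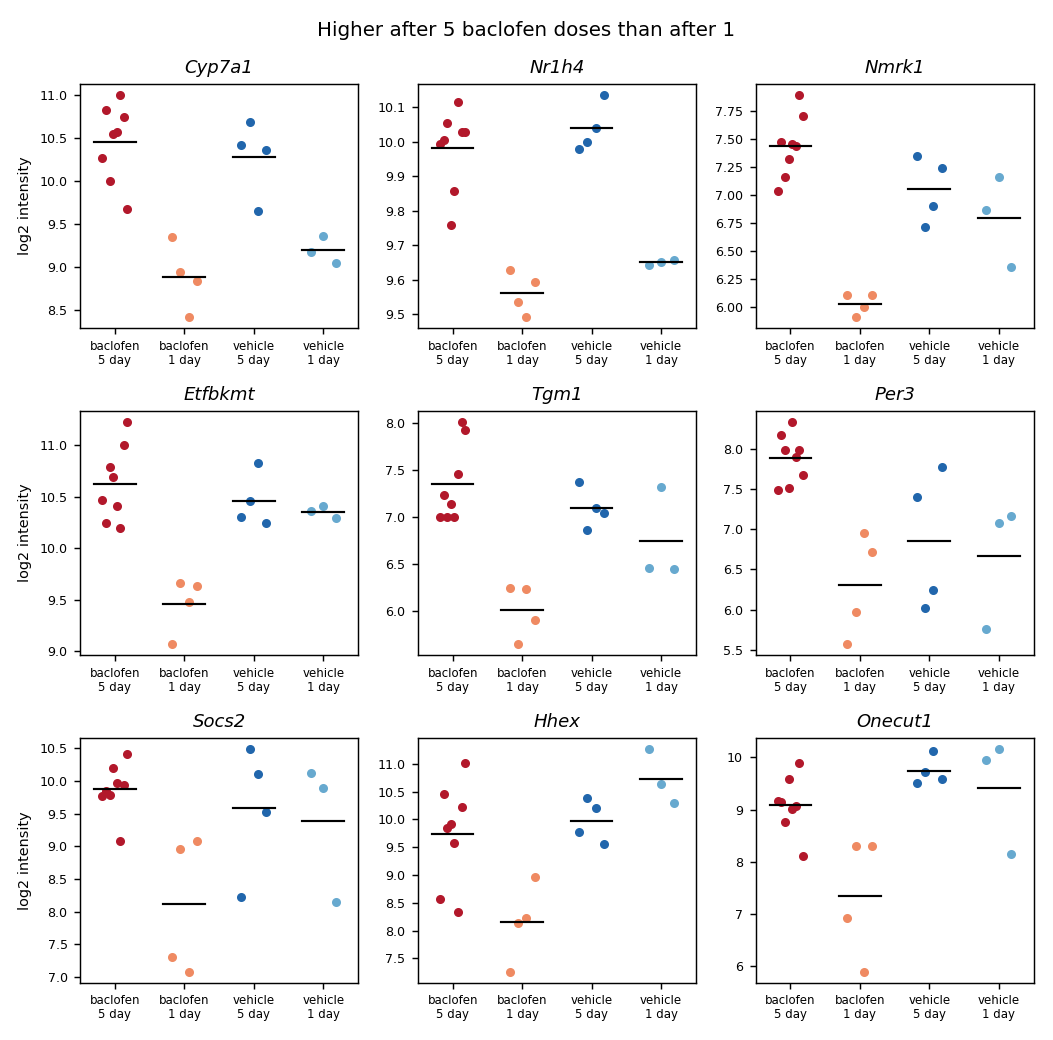
Log2 intensity of 9 genes in each liver (points) with the mean of each group (bars), for baclofen 5 day (n = 8), baclofen 1 day (n = 4), vehicle 5 day (n = 4) and vehicle 1 day (n = 3). All 9 rose under baclofen, and in each the baclofen 1 day livers hold the lowest mean of the 4 groups. For Cyp7a1 and Nr1h4 the vehicle 5 day livers also lie above the vehicle 1 day livers.

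Transcription factors of the hepatocyte included 3 of the rises. Of 15 tested, 3 rose and 0 fell, against 2.06% and 3.3% of all genes. Hhex, a homeobox factor of liver development, stood at 324 to 2062 with a median of 949 in baclofen 5 day livers and 154, 283, 298 and 502 in baclofen 1 day livers, against 874, 1331, 1177 and 755 in vehicle 5 day and 2463, 1592 and 1261 in vehicle 1 day livers. Its baclofen groups overlapped in part, and all 4 baclofen 1 day livers lay below every vehicle liver. Its change was 1.59 ± 0.40 (adjusted p = 0.0283), against -0.76 ± 0.50 in vehicle, with an interval of 1.00 to 3.71. Onecut1, known as HNF6, stood at 275 to 955 with a median of 551 in baclofen 5 day livers and 121, 314, 59.8 and 315 in baclofen 1 day livers, at 725, 846, 1119 and 767 in vehicle 5 day livers and at 983, 1141 and 282 in vehicle 1 day livers. It changed by 1.74 ± 0.42 (adjusted p = 0.0219), and its relative Onecut2 by 0.54 ± 0.12 (adjusted p = 0.014). None of the 3 calls held throughout: the call of Hhex ended without baclofen 1 day livers 1, 2 or 3 (adjusted p up to 0.116), the call of Onecut1 ended without baclofen 1 day livers 1 or 3 (adjusted p up to 0.0825) and the call of Onecut2 ended without baclofen 1 day livers 1 or 2 (adjusted p up to 0.0641). The master regulator Hnf4a stood at -0.06 ± 0.08 and Cebpa at 0.15 ± 0.09, and neither passed.

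Growth hormone acts on liver through STAT5, and the suppressor Socs2 is among its direct targets. Socs2 had the largest rise past the threshold, 1.77 ± 0.44 (adjusted p = 0.0269), against 0.20 ± 0.55 in vehicle. It stood at 539.6 to 1369 with a median of 951 in baclofen 5 day livers, 159, 499, 136 and 543 in baclofen 1 day livers, 298, 1436, 1101 and 739 in vehicle 5 day livers and 1118, 947 and 283 in vehicle 1 day livers. The 4 baclofen 1 day livers form a low and a higher pair, and 1 vehicle liver of each day, at 298 and 283, lay below all 8 baclofen 5 day livers. A second bright probe set of Socs2 changed by 2.05. Its dimmer probe sets, with mean log2 intensities of 3.38 to 5.62 against 9.37, changed by 0.18 to 0.32. The Socs2 call ended with the mean of the probe sets. Of 16 genes of the growth hormone and IGF axis 1 rose and 2 fell, Elovl3 and Stat5b, against 2.06% and 3.3% of all genes. Stat5b changed by -0.36 ± 0.10 (adjusted p = 0.0431). Of these calls, the call of Socs2 ended without baclofen 1 day livers 1 or 3 (adjusted p up to 0.107), and the call of Stat5b ended without baclofen 5 day livers 1, 2, 3, 4, 5, 6 or 7, baclofen 1 day livers 1, 2, 3 or 4 or vehicle 1 day liver 3 (adjusted p up to 0.145).

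Among clock genes Per3 rose, 1 of 17 tested, and 0 fell, against 2.06% and 3.3% of all genes. Per3, a Period protein gene, stood at 179 to 322 with a median of 246 in baclofen 5 day livers and 47.5, 63.0, 124 and 105 in baclofen 1 day livers, without overlap. The 4 vehicle 5 day livers held 168, 64.8, 76.1 and 218 and the 3 vehicle 1 day livers 54.5, 135 and 144. Its change was 1.57 ± 0.33 (adjusted p = 0.0104), against 0.19 ± 0.41 in vehicle, with an interval of 0.29 to 2.48, and the call of Per3 ended without baclofen 1 day liver 1 (adjusted p up to 0.0556). Clock partners had large values that did not pass, such as 1.87 ± 0.68 for Dbp (adjusted p = 0.109), 0.95 ± 0.30 for Per2 (adjusted p = 0.0723) and -1.36 ± 0.40 for Arntl, the gene of BMAL1 (adjusted p = 0.0544). Without baclofen 5 day replicate 8, 1 clock gene rose and 3 fell, where 218 and 350 of all 10916 genes did. The labels used here give no clock time of collection.

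Among the remaining rises Nmrk1, a kinase that turns nicotinamide riboside into an NAD precursor, was the clearest. It stood at 132 to 239 with a median of 175 in baclofen 5 day livers, 68.8, 59.96, 63.9 and 68.7 in baclofen 1 day livers, 163, 105, 119.8 and 151 in vehicle 5 day livers and 117, 143 and 82.1 in vehicle 1 day livers. The 4 baclofen 1 day livers lay below all 15 others. Its change was 1.41 ± 0.16 (adjusted p = 8.49e-05), against 0.26 ± 0.19 in vehicle, with an interval of 0.63 to 1.68. Etfbkmt, a methyltransferase of a mitochondrial electron carrier, gave similar values, with 1173 to 2400 with a median of 1537 in baclofen 5 day livers, 537, 811, 713 and 797 in baclofen 1 day livers, 1263, 1407, 1824 and 1215 in vehicle 5 day and 1314, 1361 and 1257 in vehicle 1 day livers. Here too the baclofen 1 day livers lay below all others, and the change was 1.17 ± 0.17 (adjusted p = 0.00103), against 0.11 ± 0.21 in vehicle. The brighter of its 2 probe sets is given, and the other changed by 0.19. Tgm1, a transglutaminase, changed by 1.33 ± 0.21 (adjusted p = 0.00134), and stood at 128 to 257 with a median of 146 in baclofen 5 day livers and 76.2, 50.3, 75.2 and 60.2 in baclofen 1 day livers. Cnmd, the gene of chondromodulin, changed by 1.53 ± 0.36 (adjusted p = 0.0195), Gdap10 by 1.28 ± 0.28 (adjusted p = 0.0126), and Acot3, a peroxisomal acyl-CoA thioesterase, by 1.15 ± 0.31 (adjusted p = 0.0398). Aacs, which activates acetoacetate for lipid synthesis, changed by 1.37 ± 0.34 (adjusted p = 0.024). Its lowest baclofen 5 day value was again in replicate 8, and without that array the change was 1.58 (adjusted p = 0.00258). Of these, the call of Cnmd ended without baclofen 1 day livers 1 or 2 (adjusted p up to 0.0909), the call of Gdap10 ended without baclofen 1 day liver 1 (adjusted p up to 0.0643), the call of Acot3 ended without baclofen 5 day livers 5, 6 or 8 or baclofen 1 day livers 1, 2, 3 or 4 (adjusted p up to 0.112), and the call of Aacs ended without baclofen 1 day livers 1, 2 or 3 (adjusted p up to 0.0912).

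Genes of glucose and fat metabolism changed in both directions. Slc2a1, the glucose transporter GLUT1, stood at 164 to 218 with a median of 173 in baclofen 5 day livers, 326, 340.3, 349 and 265 in baclofen 1 day livers, 137, 128, 99.5 and 93.7 in vehicle 5 day livers and 185, 139.6 and 179 in vehicle 1 day livers. In both treatments the 5 day livers lay below the 1 day livers, with a change of -0.83 ± 0.11 under baclofen (adjusted p = 0.000551) and of -0.56 ± 0.14 under vehicle, with an interval of -0.64 to 0.10. Of 13 genes of glycogen, glycolysis and glucose transport 2 fell and 2 rose, against 3.3% and 2.06% of all genes. Ppp1r3c, which targets a phosphatase to glycogen and promotes its synthesis, stood at 448 to 2030 with a median of 1528 in baclofen 5 day livers and 3112, 3010, 4446 and 2315 in baclofen 1 day livers, and changed by -1.27 ± 0.34 (adjusted p = 0.034), against 0.55 ± 0.42 in vehicle. Pfkfb3, an activator of glycolysis, changed by 1.04 ± 0.25 (adjusted p = 0.0208), and by 1.23 without baclofen 5 day replicate 8 (adjusted p = 0.00044). Gbe1, the glycogen branching enzyme, changed by 0.41 ± 0.09 (adjusted p = 0.0123). Here the call of Ppp1r3c ended without baclofen 5 day liver 3 or baclofen 1 day livers 1, 2 or 3 (adjusted p up to 0.0997), the call of Pfkfb3 ended without baclofen 1 day livers 1 or 2 (adjusted p up to 0.0904), and the call of Gbe1 ended without baclofen 1 day liver 1 (adjusted p up to 0.0627). Of 14 genes of fatty acid synthesis 2 rose and 0 fell, against 2.06% and 3.3% of all genes, with 13 higher under baclofen (median 0.34) and 10 higher in vehicle (median 0.20). The 2 are the acetyl-CoA carboxylases Acacb, at 0.80 ± 0.18 (adjusted p = 0.0144), and Acaca, at 0.53 ± 0.14 (adjusted p = 0.0341), which make malonyl-CoA. Fasn stood at 0.51 ± 0.31 and did not pass. The calls were 0 without baclofen 1 day replicate 1 or 2 and 5 without baclofen 5 day replicate 8, the call of Acacb ended without baclofen 1 day livers 1 or 2 (adjusted p up to 0.0591), and the call of Acaca ended without baclofen 5 day livers 5 or 6 or baclofen 1 day livers 1, 2 or 3 (adjusted p up to 0.104).

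Genes of gluconeogenesis and those repressed by insulin gave 0 calls of 11. Igfbp1, an insulin-repressed binding protein, stood at 3861 to 11750 with a median of 6751 in baclofen 5 day livers and 13940, 10020, 5214 and 12120 in baclofen 1 day livers, against 349.6, 472, 940.1 and 1254 in vehicle 5 day and 1541, 153 and 496 in vehicle 1 day livers. All baclofen livers of either day lay above all vehicle livers, and the baclofen groups overlapped (-0.61 ± 0.48, adjusted p = 0.489). These groups follow the titles. The 3 livers titled baclofen 1 day whose source field names vehicle held 10020, 5214 and 12120. Those titled vehicle 1 day whose source field names baclofen held 153 and 496. Which label is right was not tested. G6pc, the last enzyme of glucose release, gave -0.46 ± 0.19 (adjusted p = 0.151), and also stood higher in every baclofen liver, at 3456 to 8330 in baclofen 5 day and 6507 to 8626 in baclofen 1 day livers, than in any vehicle liver, at 2261 to 3297 in vehicle 5 day and 1719 to 2591 in vehicle 1 day livers. Ass1, a urea cycle enzyme, gave -0.48 ± 0.29 (adjusted p = 0.35) although its baclofen groups did not overlap, at 533 to 897 in 5 day and 986 to 1120 in 1 day livers. Baclofen 5 day livers lay all above or all below the 1 day livers for 5.73% of genes, and vehicle livers for 5.95%. These shares are not alike. The baclofen arrays can be split in 495 ways and the fewer vehicle arrays in 35, so full separation by chance is rarer under baclofen.

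Genes of energy and protein production gave 2 calls. Of 22 subunits of oxidative phosphorylation 21 were higher after 5 baclofen doses, with a median of 0.09, against 6 of 22 in vehicle, with a median of -0.02, where 49.2% of all genes were higher under baclofen and 50.3% under vehicle. Among the 22, 1 rose, where 2.06% of all genes did: Uqcrc2, a subunit of respiratory complex III, by 0.19 ± 0.05 (adjusted p = 0.0331), and the call of Uqcrc2 ended without baclofen 5 day livers 3, 5 or 6 or baclofen 1 day livers 1, 2, 3 or 4 (adjusted p up to 0.113). Its second probe set, with a mean log2 intensity of 11.45 against 11.56, changed by only 0.03, and the call also ended with the mean of the probe sets. Of 14 cytosolic ribosomal proteins 13 were higher under baclofen and 4 under vehicle, with medians of 0.12 and -0.01, and 0 passed, although 4 passed without baclofen 1 day replicate 4 and 1 without vehicle 5 day replicate 3. The 21 and the 13 higher under baclofen were the same counts after quantile normalization and after centring of each array, which were not counted for vehicle. Of 20 ribosome biogenesis genes 17 were higher under each treatment, and 1 rose, the nucleolar GTPase gene Gnl3, by 0.60 ± 0.16 (adjusted p = 0.0331), though the call of Gnl3 ended without baclofen 5 day livers 4 or 6 or baclofen 1 day livers 1, 2 or 3 (adjusted p up to 0.11). These counts describe the lists, whose genes are not independent of each other.

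**Figure D4:**
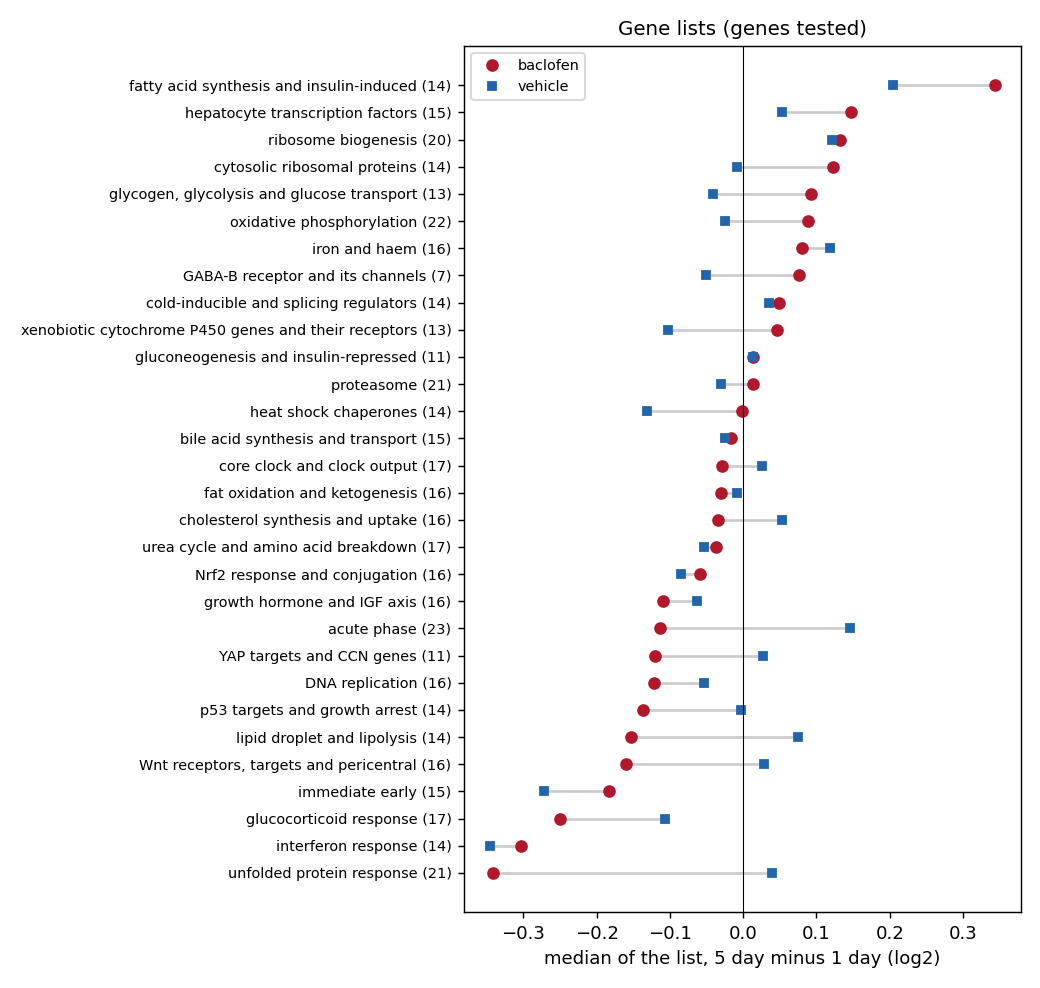
Median log2 change from 1 to 5 day over the tested genes of each pathway list (number tested in brackets), under baclofen (circles) and vehicle (squares), joined by a line. The unfolded protein response list stands at -0.34 under baclofen and 0.04 under vehicle, and fatty acid synthesis at 0.34 and 0.20.

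Acute phase, interferon and oxidant response genes gave 2 calls. Acute phase proteins are made by hepatocytes during inflammation. Of 23 genes 0 passed, with 7 higher and 16 lower under baclofen and all 23 higher under vehicle. Saa1, serum amyloid A, stood at 1072 to 18450 with a median of 2105 in baclofen 5 day livers, 10520, 11010, 9377 and 3118 in baclofen 1 day livers, 23390, 22100, 16360 and 4007 in vehicle 5 day livers and 23860, 5260 and 10030 in vehicle 1 day livers. Values spread widely within every group, and the change was -1.40 ± 0.68 (adjusted p = 0.238). Of 14 interferon response genes 1 fell, against 3.3% of all genes. This was Usp18, a brake on interferon signalling, with a change of -0.99 ± 0.26 (adjusted p = 0.0333) against -0.57 ± 0.33 in vehicle. Of the 14, 12 were lower under baclofen and 11 under vehicle. Of 16 oxidant response genes 1 fell, against the same share of all genes. This was Srxn1, a sulfiredoxin and Nrf2 target, with a change of -0.44 ± 0.09 (adjusted p = 0.0112), against 0.05 ± 0.12 in vehicle. Its baclofen 5 day values of 136 to 201 lay below all baclofen 1 day values of 229 to 248. The other probe sets of Srxn1, with mean log2 intensities of 6.76, 7.18 and 5.33 against 7.65, changed by -0.03, -0.27 and -0.39. Its call held with the mean of the probe sets and ended with the replicate number as a block. The call of Srxn1 held with each liver left out, whereas the call of Usp18 ended without baclofen 5 day livers 2, 3 or 5 or baclofen 1 day livers 1, 2 or 3 (adjusted p up to 0.137).

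Drug-metabolising cytochrome P450 genes and their receptors, which many drugs raise in liver, gave 0 calls of 13, with a median of 0.05 under baclofen and -0.10 under vehicle. Cyp4a14, a fatty acid hydroxylase induced through PPAR-alpha, had a large but scattered value of 2.22 ± 0.76 (adjusted p = 0.0883), at 73.6 to 1875 with a median of 591 in baclofen 5 day livers and 444, 53.4, 109.6 and 61.2 in baclofen 1 day livers. Alas1, the first enzyme of haem synthesis, gave 1.01 ± 0.30 (adjusted p = 0.0581), and the hepatokine gene Fgf21 gave -0.74 ± 0.33 (adjusted p = 0.192). The drug's own receptor subunit Gabbr1 was near the lower limit of the genes tested, at 59.9 to 70.0 in baclofen 5 day livers and 55.3 to 65.8 in baclofen 1 day livers, where that limit was a mean of 42.9, and it did not pass at 0.08 ± 0.06. Gabbr2, the other subunit, was dimmer than that limit. The lists of cholesterol synthesis (16 genes), fat oxidation (16), urea cycle and amino acid breakdown (17), iron and haem (16), proteasome (21), DNA replication (16) and mitosis (3) held 0 calls.

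Markers of other liver cells were measured beside these results. Of 13 tested markers of Kupffer cells, the resident macrophages, 0 passed, but all 13 were lower after 5 baclofen doses, with a median of -0.43, and 11 of 13 were lower in vehicle, with a median of -0.27. Their mean log2 level ranged over 7.75 to 8.24 in baclofen 5 day, 8.14 to 8.83 in baclofen 1 day, 8.15 to 8.77 in vehicle 5 day and 8.29 to 9.04 in vehicle 1 day livers. Mpeg1, a macrophage pore protein, gave -0.63 ± 0.19 (adjusted p = 0.0589), and Cd5l, a secreted Kupffer cell protein, -0.54 ± 0.19 (adjusted p = 0.0921). Without baclofen 1 day replicate 2 the median of the list was -0.25 and 12 of 13 were lower. Without replicate 4 of that group 2 of the 13 fell, where 241 of all 10916 genes did. Of 11 endothelial markers 7 were lower under baclofen and 10 under vehicle, and of 11 stellate cell and fibroblast markers 9 and 8, with 0 calls. Neutrophil, B cell, T and natural killer cell, erythroid, bile duct, pancreas and adipocyte lists had 2 to 4 genes bright enough to test and 0 calls. The only skeletal muscle marker tested, Ckm, changed by -0.17 ± 0.05 (adjusted p = 0.0471), the call of Ckm ended without baclofen 5 day livers 1, 2, 3, 4, 5, 6, 7 or 8, baclofen 1 day livers 1, 2 or 4, vehicle 5 day livers 1 or 4 or vehicle 1 day livers 2 or 3 (adjusted p up to 0.155), and the mean of its probe sets stood at 0.0005. The part of other cells in the interferon and early response changes was not tested.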

How the data were processed

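Liver RNA was measured on Affymetrix 430 2.0 arrays, 19 of them from liver. The deposited values are intensity per probe set on a linear scale, normalized with RMA, and RMA and limma are named without versions, per the submitters' processing notes. The log2 of each deposited intensity was taken here. Of 45101 probe sets, 34945 carry 1 gene symbol, 932 several, 9160 none and 64 are controls. The probe set with the highest mean stood for each of 18193 genes, and genes below the 40th percentile of mean intensity over livers were left out, leaving 10916. One model in limma 3.58.1 (R 4.3.3) was fitted to the 4 liver groups, with the contrasts baclofen 5 day minus 1 day, vehicle 5 day minus 1 day, and their difference. P-values were adjusted over all genes tested by Benjamini-Hochberg, at a threshold of 0.05. SE is the moderated standard error. Where nothing says that replicates are separate animals, p-values measure the spread between these arrays.

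Genes were named by a rule: the 12 largest rises and falls past the threshold, every gene past it in the difference, from each list up to 4 called members by lowest adjusted p or, with 0 called, the 2 largest changes, and Gabbr1. The comparison, the lists and the rule were chosen with earlier results of these data known. In simulated data for the baclofen comparison, over 10916 genes, 98% of 100 genes changed by 1 on the log2 scale and 100% of 100 changed by 2 were recovered. For the difference between the treatments the shares were 92% and 100%. The changed genes were drawn at random, and the simulated noise was normal and independent between genes. The median log2 change of the genes called in the livers was smaller, 0.40 for rises and -0.41 for falls. The shares are thus averages over random genes and do not hold for smaller changes or for genes of wide spread. Samples were grouped by title. The alternatives tried were filters, probe set rules, scalings, weights, thresholds, a replicate block, grouping by the source field and leaving out each liver. Promoter windows are from RefSeq, GRCm38.p6. Spleen and bone marrow arrays were not used here. Figures were drawn with matplotlib 3.10.9.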

Additional observations from a re-analysis of the deposited data

Results flagged for a closer look

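The changes from 1 to 5 day differed between baclofen and vehicle for Ccn1, by -0.93, and for Fzd5, by -0.87 on the log2 scale, by the test of the difference itself. With groups taken from the source field the differences were -0.87 for Ccn1 and -0.78 for Fzd5 (limma adjusted p = 0.0146 for each).

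Of 195 groups of values checked, 14 had 1 array far from the others of its group, where chance gives about 1 in 20. Baclofen 5 day replicate 8 holds 6 of them. Its mean correlation with its group was 0.983, against 0.991 for the next array. Its log2 intensity was the lowest of its group for Aacs (7.83, next 9.07), Elovl3 (8.13, next 10.49), Pfkfb3 (7.23, next 8.35), Plin2 (11.09, next 11.71) and Tsc22d1 (8.79, next 9.48). Without it the calls of Dusp1 (-1.13, adjusted p = 0.0535), Acot3 (1.06, adjusted p = 0.059) and Ckm (-0.16, adjusted p = 0.0662) ended.

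Baclofen 1 day replicate 1 was the highest of its group for Cdkn1a (11.09, next 9.75), Plin2 (12.85, next 12.34) and Plin5 (11.41, next 11). Baclofen 1 day replicate 4 was the lowest for Acot3 (4.96, next 5.53) and Saa1 (11.61, next 13.19). Plin4 in baclofen 5 day replicate 6 stood at 8.78 (next 7.38). In vehicle 5 day replicate 2, Cyp8b1 stood high at 12.07 (next 11.87) and Nr0b2 low at 9.60 (next 9.94).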

How the results depend on the processing

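The count of 585 genes between 5 and 1 baclofen doses became 992 with every probe set tested apart, 1317 with array weights, 132 at an adjusted p under 0.01, 161 at a change of at least 1.5-fold, 157 with the replicate number as a block and 51 with groups from the source field, and lay between 475 and 743 under the other 8 settings. Leaving out each liver gave 211 to 724 genes under baclofen, 0 to 3 under vehicle and 0 to 6 for the difference. The vehicle count of 0 became 1 after quantile normalization, 1 with each array centred and 187 with the source field. The count of 2 for the difference became 0 with a filter at the 60th percentile, 0 with the mean of probe sets and 4 with every probe set. It became 3 with the sign of RNA breakdown as a covariate, 0 at an adjusted p under 0.01, 0 with the replicate block and 72 with the source field. The filter at the 60th percentile left out both Ccn1 and Fzd5 as too dim. With the mean of probe sets Ccn1 was left out too, and the Fzd5 difference was -0.41 (limma adjusted p = 0.231). The cause of the other moves was not tested, other than that stricter thresholds pass fewer genes. Replicate numbers were not taken to pair the arrays. Deviations of same-numbered arrays correlated at -0.04, -0.03, 0.22 and 0.03 between baclofen 5 day and 1 day, at -0.05, -0.17 and -0.21 between vehicle 5 day and 1 day, at -0.11, -0.28, -0.02 and -0.32 between baclofen and vehicle at 5 day, and at 0.26, -0.09 and 0.23 between baclofen and vehicle at 1 day, where replicates 1 and 3 matched their own number best. The p53 list held 3 falls and the unfolded protein response list 0 with the block. Of the 53 calls named, 24 passed with the replicate block, and 16 passed with every liver left out in turn. Directions turned for Ckm with the mean of probe sets (0.000456) and, with the source field, for Cirbp (0.18), Dusp1 (0.055), Klf2 (0.0497), Sgk1 (0.21), Snhg3 (0.54) and Trp53inp1 (0.45), 0 of them past the threshold there. Dim genes are limited by background: the lowest mean intensity tested was 42.9, against array medians of 34.7 to 36.8.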
